A study of Rattus norvegicus with 22 samples.

Results

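The nuclear-encoded subunits of respiratory complexes II to V were examined in kidney RNA sequencing data of 22 rats. Members were the genes whose rat symbol begins with Uqcr, Atp5, Cox4, Cox5, Cox6, Cox7 or Cox8, together with Sdha, Sdhb, Sdhc, Sdhd and Cyc1. The rule named 47 of the 17334 genes in the files, and 44 of them had a mean of at least 10 estimated counts over the 22 rats. These were 4 genes of complex II, 9 of complex III, 14 of complex IV and 17 of complex V. The 3 genes left out were Cox6c-ps1, Cox8b and Cox8c, with means of 0.136, 1.77 and 1.82 counts. The members nearest to the minimum were Cox6a2, Cox6b2 and Cox4i2, with means of 29.2, 40.6 and 47.8 counts. Cox7a1 was not analysed here. All 44 members passed the filter on low counts and were tested. The files pair each gene with an Entrez Gene number, and 27 of the 44 members have a named pseudogene or like copy in the reference (1 for Cox4i1, 3 for Cox6c and 6 for Atp5mc2, for example), so that their reads could be divided with a copy. Each library held 12195682 to 14734772 estimated counts.

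All 22 rats were of the strain PKD/Mhm (Cy/+), which carries a missense mutation of the gene encoding SamCystin and develops polycystic kidneys, and the left kidney was taken at an age of 8 months. The rats were male. The 6 untreated rats served as controls, 6 rats received ASC, human adipose-derived stromal cells, into the peritoneum (i.p. ASC), 6 received ASC into a vein (i.v. ASC) and 4 received CM, which the study describes as medium conditioned by ASC. Treatment was given once a month for 6 months, and each cell injection held 2000000 cells. The sources give different routes for CM, a vein in the methods and the peritoneum in the design text. No source used here states that the untreated rats received a vehicle, so that the agents and the act of injection cannot be told apart. The cells were human and the hosts were rats, and no healthy littermates were analysed here. The question was whether the genes of oxidative phosphorylation differed between treated and untreated polycystic kidneys.

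The respiratory chain lies in the inner mitochondrial membrane. Complex II (succinate dehydrogenase) passes electrons from succinate of the citrate cycle to ubiquinone, complex III (the cytochrome bc1 complex) passes them from ubiquinol to cytochrome c, and complex IV (cytochrome c oxidase) passes them from cytochrome c to oxygen. Complexes III and IV pump protons, and complex V (ATP synthase) uses the proton gradient to make ATP. All subunits of complex II are encoded in the nucleus. Cytochrome b of complex III, the catalytic core of complex IV and parts of the membrane domain of complex V come from the mitochondrial genome. Genes of that genome were not analysed here. In the kidney, the proximal tubule and the thick ascending limb hold many mitochondria. In bulk tissue, fewer cells of a type and less RNA per cell cannot be told apart.

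Promoters were examined because genes of the respiratory chain are known targets of the transcription factors NRF1 and GABP. A promoter of 300 bases, from 250 before to 50 after the start, was given for 37 of the 44 members in RefSeq (build GRCr8). Both strands were searched for 4 motifs, GCGCATGCG for NRF1, CCGGAAGT for GABP and other ETS factors, AAGATGGC for YY1 and TCAAGGTCA for the ERR receptors. The NRF1 letters stood in 5 of the 37 member promoters, which is 13.5%, and in 1.52% of all 33469 promoters of the table. The GABP letters stood in 5 members as well, against 3.81% of all promoters. The YY1 letters stood in 7 members, or 18.9%, against 3.17% of all, and the ERR letters in 2 members, Sdhd and Atp5mc3, or 5.41%, against 0.433%. A match is a description of the sequence and does not show that a factor binds. By complex, the NRF1 or GABP letters stood in 0 of 4 promoters of complex II, 3 of 6 of complex III, 2 of 11 of complex IV and 5 of 16 of complex V.

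The 100 bases before the start are shown for the members of complexes III, IV and V that hold an NRF1 or GABP match there, except Atp5f1a. The shared letters can so be compared across complexes. Each is written 5′ to 3′ on the strand of the gene, with the matches in capitals.
Uqcrc1, chr8:118468123-118468222, plus strand: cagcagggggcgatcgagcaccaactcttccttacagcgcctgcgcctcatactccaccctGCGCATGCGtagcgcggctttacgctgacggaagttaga
Uqcrh, chr5:134790883-134790982, minus strand: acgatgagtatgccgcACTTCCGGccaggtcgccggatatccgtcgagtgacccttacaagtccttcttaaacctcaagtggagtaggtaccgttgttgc
Uqcrq, chr10:38089979-38090078, minus strand: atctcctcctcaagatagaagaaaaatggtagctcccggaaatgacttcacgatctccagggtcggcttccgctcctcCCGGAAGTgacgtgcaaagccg
Cox5b, chr9:46417737-46417836, plus strand: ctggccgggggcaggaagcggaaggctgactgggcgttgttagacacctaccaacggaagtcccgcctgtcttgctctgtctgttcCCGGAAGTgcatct
Cox8a, chr1:213833624-213833723, minus strand: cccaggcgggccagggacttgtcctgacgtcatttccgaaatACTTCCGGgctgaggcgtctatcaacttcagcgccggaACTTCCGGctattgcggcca
Atp5mc2, chr7:135678219-135678318, minus strand: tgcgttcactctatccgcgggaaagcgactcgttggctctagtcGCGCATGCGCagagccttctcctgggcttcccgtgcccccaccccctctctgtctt
Atp5me, chr14:1464760-1464859, plus strand: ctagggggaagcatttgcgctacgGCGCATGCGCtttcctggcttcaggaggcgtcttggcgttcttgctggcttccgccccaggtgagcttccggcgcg
Atp5po, chr11:44657484-44657583, minus strand: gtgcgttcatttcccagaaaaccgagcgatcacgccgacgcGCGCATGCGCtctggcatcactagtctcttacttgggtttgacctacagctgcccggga
In Atp5mc2, Atp5me and Atp5po the NRF1 letters were found on both strands, 1 base apart, because the 10 bases in capitals read the same on both strands. The match in Uqcrc1 began 39 bases before the start and those of Atp5mc2, Atp5po and Atp5me began 56, 59 and 76 bases before it. Cox8a held 2 GABP matches, 58 and 20 bases before the start. Atp5mg held an NRF1 match farther upstream than the bases shown. Atp5f1a, which is not printed, held a GABP match that began 61 bases before the start.

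Levels of different genes were compared in TPM, the deposited estimate scaled by transcript length and total. Together the 44 members made up 3.44% of all TPM in untreated rat 24, the lowest, and 4.86% in CM rat 2, the highest. The median TPM of the members of complex IV was above that of complex V in 22 of 22 rats, and complex V was above complexes II and III in 22 of 22. Averaged over rats, these medians were 1111 ± 105 TPM (SD, n = 22) for complex IV, 1006 ± 85.5 for complex V, 408 ± 48.5 for complex II and 389 ± 38.2 for complex III. Complexes II and III did not keep an order, with complex III higher in 5 of 22 rats.

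The most abundant member was Cox8a, a small nuclear subunit of cytochrome c oxidase in its ubiquitous form (Entrez Gene 171335), with a mean of 2847 TPM and a range of 2204 to 3922 TPM over the 22 rats. Atp5f1b, the catalytic beta subunit of ATP synthase, followed with 2408 TPM, and lay below Cox8a in 22 of 22 rats. Cox6b1, Cox4i1, Cox6a1 and Atp5f1e, the epsilon subunit of the ATP synthase stalk, had means of 1774, 1772, 1668 and 1633 TPM. Their order was not fixed, since Cox4i1 was above Cox6b1 in 10 of 22 rats. The subunits of one complex did not have equal TPM. In complex III, Uqcr11, a small accessory subunit, had 1157 TPM, the core proteins Uqcrc1 and Uqcrc2 had 325 and 249 TPM, and Uqcrq, another small subunit, had 123 TPM. The low TPM of Uqcrq depends on the transcript length used by the authors. Its ratio of count to TPM, relative to the median gene, was 0.659, against 0.162 for Uqcr11. In CPM, Uqcrq ranged from 90.3 to 181 and Uqcr11 from 216 to 388. In complex II, the membrane anchor Sdhc was highest at 524 TPM and the flavoprotein Sdha lowest at 328 TPM, and Sdhc was above Sdha in 22 of 22 rats. In the head of ATP synthase, Atp5f1b was above Atp5f1a, the alpha subunit with 1010.1 TPM, in 22 of 22 rats.

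**Figure D1:**
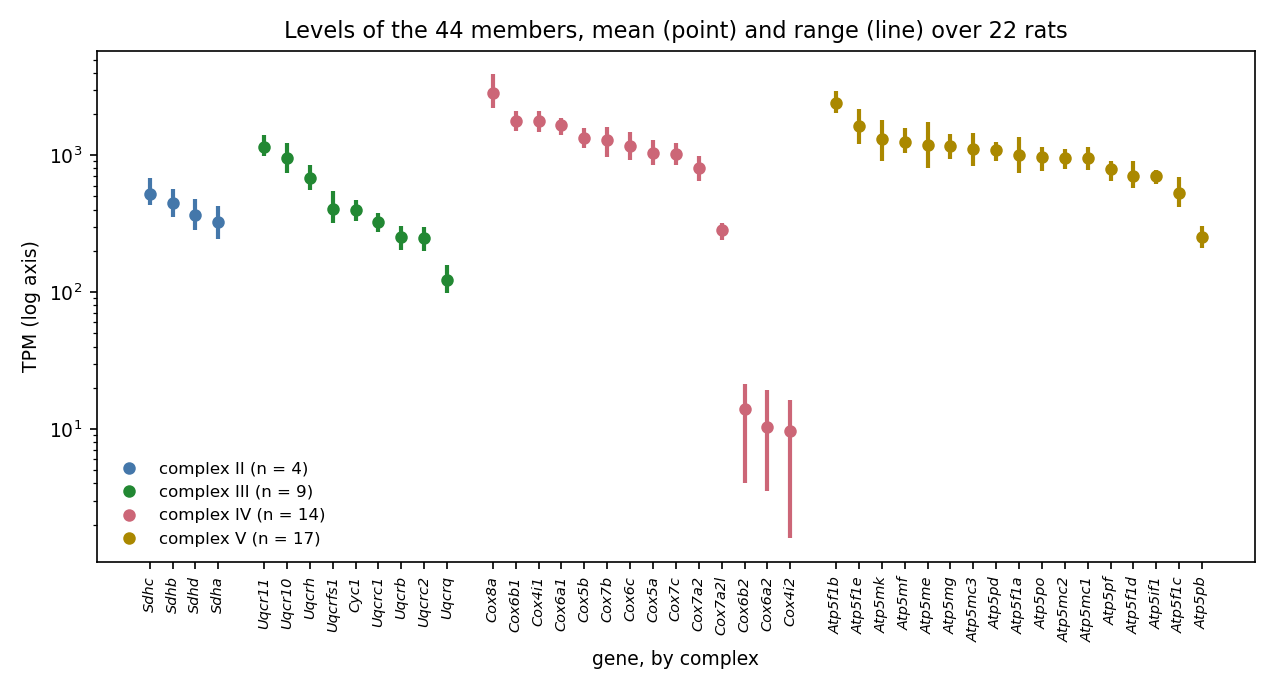
TPM (log axis) of each of the 44 members, ordered by mean within complexes II, III, IV and V, with points for the mean and lines for the lowest to highest of the 22 rats. All but 3 members lie at 98.4 TPM or above in every rat, and Cox6b2, Cox6a2 and Cox4i2 lie at the bottom of complex IV.

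Several subunits have tissue-restricted isoforms, and the kidney RNA held almost entirely the ubiquitous forms. Cox4i2, an isoform of subunit IV known from lung and induced by low oxygen, had a mean of 9.66 TPM and made up 0.0812% to 1.08% of the summed TPM of Cox4i1 and Cox4i2. Cox6a2, the heart and skeletal muscle form of subunit VIa, made up 0.187% to 1.17% of its pair. Cox6b2, the testis form of subunit VIb, made up 0.224% to 1.18%. Cox8b, the muscle form of subunit VIII, had 0 to 7 counts per rat and 0 counts in 4 of 22 rats. The 3 genes Atp5mc1, Atp5mc2 and Atp5mc3 encode the same mature subunit c of the ATP synthase rotor with different import sequences. Their levels were close, with medians of 31.7%, 31.5% and 36.8% of the summed subunit c TPM. Atp5mc3 was above Atp5mc1 in 22 of 22 rats and above Atp5mc2 in 21, whereas Atp5mc1 was above Atp5mc2 in 10 of 22, so that these last did not differ in order.

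Within a rat most members varied together. In untreated rat 24, 0 of 44 members were above their own median over the 22 rats on the CPM scale, and in CM rat 2, 42 of 44 were. Untreated rat 24 had the lowest CPM of all rats for 34 members. CM rat 2 had the highest CPM for 19 members and i.v. ASC rat 9 for 11. The coefficient of variation of CPM over rats ran from 9.09% in Cox7a2l to 21.5% in Sdhd and 22.3% in Cox8a, and was 28.5%, 37.96% and 41.5% in the low isoforms Cox6b2, Cox4i2 and Cox6a2.

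Before groups were compared, 2 features of the libraries were set beside the members. First, the libraries fell into 2 classes by the ratio of the deposited count to the deposited TPM in 54 genes with a very low ratio, as short transcripts have. The ratio was 0.0774 to 0.0813 in 11 rats and 0.0972 to 0.104 in the other 11, with no rat between. The labels name no such batch. Each group held both classes, with 3 rats of each among the untreated, i.p. ASC and i.v. ASC rats and 2 of each among the CM rats. The lower class held untreated rats 1, 23 and 24, i.p. ASC rats 5, 7 and 17, i.v. ASC rats 10, 13 and 14 and CM rats 2 and 19. The very short members shifted with the class on the TPM scale, with a mean TPM 1.502 times as high in the lower as in the higher class for Atp5me and 1.35 times for Atp5mk, against 0.939 and 0.898 times on the CPM scale. Cox4i1 and Cox6b1 shifted in opposite directions on the TPM scale. Their mean TPM was 1649 and 1823 in the lower class and 1894 and 1724 in the higher class. On the CPM scale the lower-class means of Cox4i1 and Cox6b1 were 0.940 and 0.955 times those of the higher class. Second, the i.v. ASC rats 3, 9, 10 and 13 had summed TPM of 6 urothelial markers of 324, 545, 23.1 and 125, against 2.02 to 16.7 in all rats of the other groups.

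In the i.p. ASC rats, most members had mean levels above those of untreated rats, by small amounts that did not pass the test for any gene. The fitted log2 fold change was above 0 for 43 of 44 members, with a median of 0.19, where it was above 0 for 46.2% of the 12867 genes tested, whose median was -0.014. The medians were 0.21 for complex II, 0.19 for complex III, 0.17 for complex IV and 0.19 for complex V. Values ran from -0.16 in Cox6a2 to 0.30 in Cox8a. With edgeR's quasi-likelihood test and p-values adjusted over all genes (Benjamini-Hochberg), 0 of 44 members and 0% of all genes passed the threshold of 0.05. Among members 0 had an unadjusted p under 0.05, and the smallest adjusted p was 0.771. The ranges of log2 CPM overlapped between i.p. ASC and untreated rats for all 44 members, and did not overlap for 0.14% of all genes. The median was smaller in some other fits, at 0.050 with 1 surrogate variable added (an unlabelled factor estimated by sva). It was 0.10 with the mean of the proximal tubule markers as a covariate and 0.13 with the trend of the fold change over transcript length removed. On the log2(TPM + 1) scale the members' median was 0.089 and that of all genes -0.098, which lie 0.19 apart. Among the lower-class libraries alone the members' median was 0.42, and among the higher-class libraries alone -0.047. These class values were computed after the values were seen. With 1 rat left out at a time the median ran from 0.14 to 0.25.

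After i.v. ASC the values were of similar size. The fitted log2 fold change was above 0 for 41 of 44 members, with a median of 0.21, where 47.5% of all genes were above 0 and the median was -0.011. The medians were 0.18, 0.21, 0.18 and 0.21 for complexes II to V. The 3 members below 0 were the low isoforms Cox4i2, Cox6b2 and Cox6a2, and the highest was Cox8a at 0.31. Again 0 of 44 members and 0% of all genes passed the threshold. Cox6c, Atp5mc2 and Atp5me had unadjusted p-values of 0.0484, 0.0489 and 0.0498 and an adjusted p of 0.523 each in edgeR's quasi-likelihood test. The ranges overlapped for all 44 members and did not overlap for 0.179% of all genes. Without the urothelium-rich rats 3, 9, 10 and 13, an alternative chosen after the values were seen, which leaves only rats 8 and 14, the members above 0 were 36 of 44 and the median was 0.097. In complex II, 1 of 4 members was then above 0 and the median was -0.041. With the surrogate variable the median of all members was 0.047, with the proximal tubule mean as a covariate 0.14, with the trend over length removed 0.12 and on the log2(TPM + 1) scale 0.079. On that last scale the median of all genes was -0.12.

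After CM, 39 of 44 members were above 0 with a median of 0.090, against 49.1% of all genes and a median of -0.0029. The medians were 0.14, 0.094, 0.055 and 0.089 for complexes II to V, and values ran from -0.40 in Cox6a2 to 0.49 in Cox4i2. Of the members and of all genes, 0 of 44 and 0% passed the threshold, 0 members had an unadjusted p under 0.05, and the smallest adjusted p of a member was 0.770 by edgeR. The ranges overlapped for all 44 members and did not overlap for 1.42% of all genes. This direction rested on 1 library. Without CM rat 2 the median of the members was -0.081 and 3 of 44 members were above 0, and the median was 0.18 without CM rat 19, 0.15 without CM rat 21 and 0.033 without untreated rat 24. Adding the surrogate variable turned this median to -0.081, and that variable had an absolute r of 0.859 with the mean log2 CPM of the proximal tubule markers over the 22 rats, which come from the same libraries. DESeq2 and limma, the latter on the log2(TPM + 1) scale, likewise called 0 of 44 members after each of the 3 treatments. Over all genes, edgeR gave an unadjusted p under 0.05 to 225 higher and 275 lower genes after i.p. ASC, 490 and 643 after i.v. ASC and 366 and 483 after CM, DESeq2 called 0, 28 and 4 genes and limma 0, 0 and 0. On the log2(TPM + 1) scale the medians of the members were 0.089, 0.079 and 0.0047, and those of all genes were -0.098, -0.12 and -0.066.

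**Figure D2:**
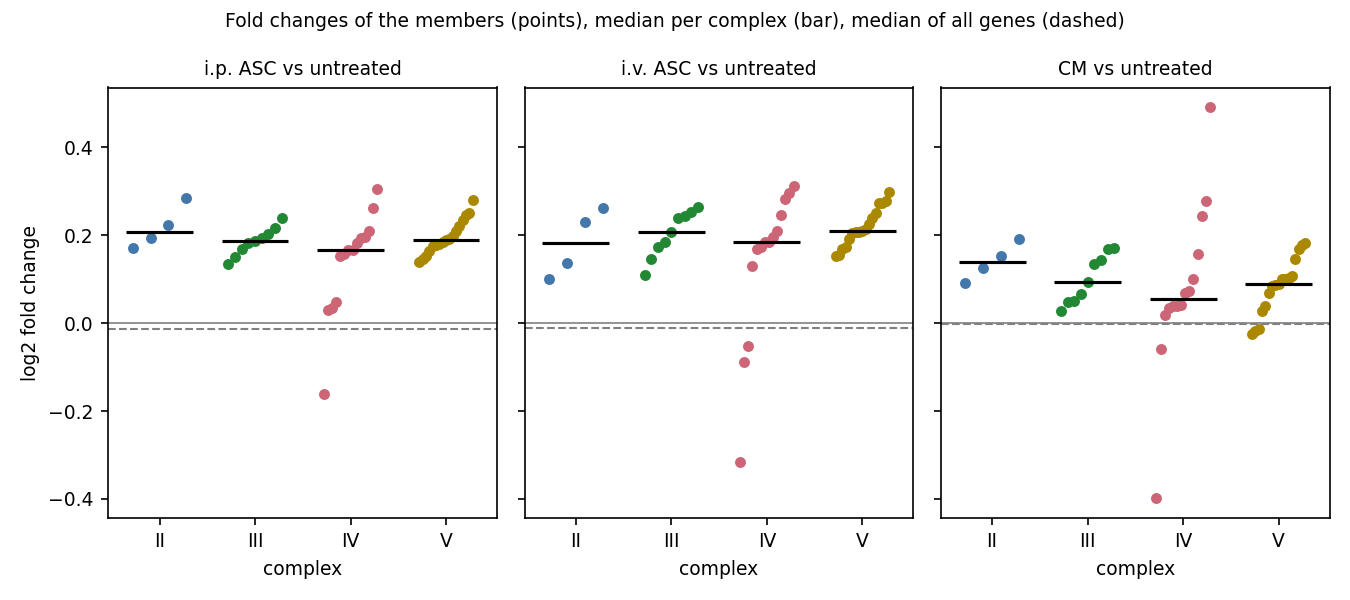
Log2 fold change against untreated rats (y axis) of the 44 members by complex (x axis) after i.p. ASC, i.v. ASC and CM, 1 point per gene, with the complex median as a bar and the median of all 12867 genes as a dashed line. Most points lie between 0 and 0.31, and the points that lie apart are the low isoforms of complex IV.

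Between treated groups no member passed the same test. For i.v. ASC against i.p. ASC the median log2 fold change was 0.017, for CM against i.p. ASC -0.097 and for CM against i.v. ASC -0.11. In each, 0 of 44 members and 0% of all genes passed the threshold, and the smallest adjusted p of a member was 0.99998, 0.9998 and 0.993 by edgeR. At an unadjusted p under 0.05 there were 0, 0 and 1 members, and the last was Cox4i2, with a log2 fold change of 0.81 in CM against i.v. ASC. DESeq2 and limma also called 0 members in each. Within the library classes, computed after the values were seen, these medians turned in 2 of the 3. For i.v. ASC against i.p. ASC the median was -0.25 in the lower and 0.26 in the higher class, for CM against i.v. ASC it was 0.17 and -0.38, and for CM against i.p. ASC -0.11 and -0.091. In the higher class, 20 members were higher in i.v. ASC than in i.p. ASC rats at an unadjusted p under 0.05. So were 1077 of 12846 genes, those of this fit that were also tested in all rats. At that level 32 members and 601 of the same genes were lower in CM than in i.v. ASC rats. Here too 0 members passed the threshold. The 3 comparisons with untreated rats share those 6 rats.

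The level of the members in each rat was summarised as the median log2 CPM over the 44 members. Its lowest, median and highest values were 7.68, 7.97 and 8.17 in untreated rats, 7.91, 8.15 and 8.42 after i.p. ASC and 7.78, 8.21 and 8.43 after i.v. ASC. The CM rats 2, 11, 19 and 21 had 8.502, 8.02, 7.74 and 7.78. The groups overlapped, and CM rat 2 was the highest of the 22 rats while CM rat 19 was second lowest after untreated rat 24. The mean ± SD was 7.96 ± 0.19 (n = 6), 8.17 ± 0.21 (n = 6), 8.18 ± 0.24 (n = 6) and 8.01 ± 0.35 (n = 4) in untreated, i.p. ASC, i.v. ASC and CM rats.

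**Figure D3:**
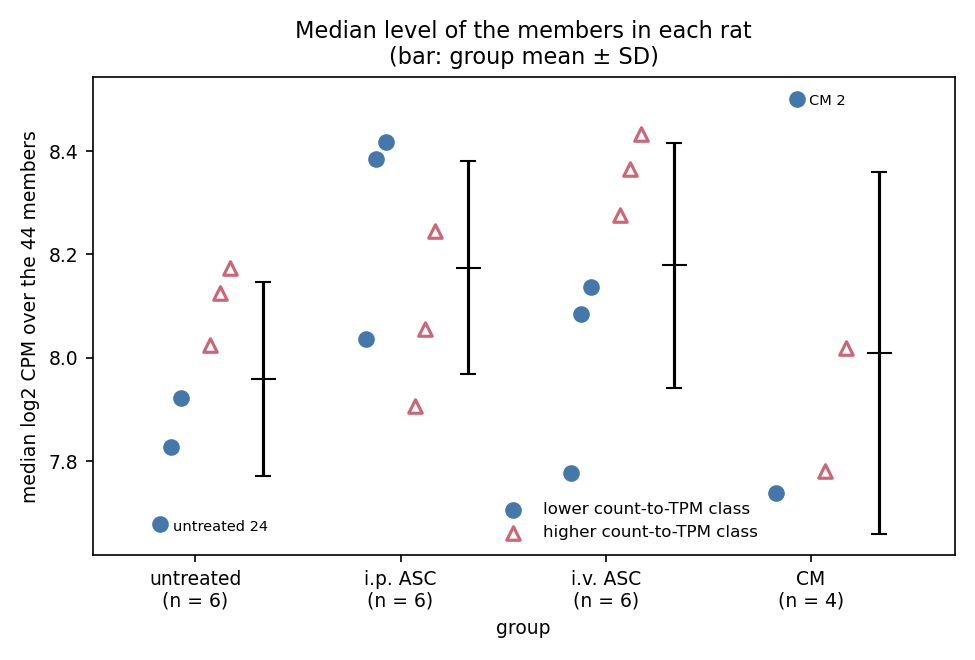
Median log2 CPM over the 44 members (y axis) of each rat by group, with filled circles for the lower and open triangles for the higher count-to-TPM class, and group means ± SD as bars. The untreated rats of the lower class, 7.68 to 7.92, lie below those of the higher class, 8.03 to 8.17, and CM rat 2 lies far above the other CM rats.

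Within the library classes the comparisons with untreated rats were not alike, which was computed after the values were seen. Among lower-class rats, 42 of 44 members were above 0 after i.p. ASC with a median log2 fold change of 0.42, where 43.9% of all genes were above 0. Among higher-class rats, 10 of 44 were above 0 with a median of -0.047, where 47.4% of all genes were. After CM the members above 0 were 43 of 44 in the lower class, with a median of 0.33 against a background of 47.8%, and 3 of 44 in the higher class, with a median of -0.13 against 51.1%. After i.v. ASC they were 43 of 44 in the lower class with a median of 0.19, against 48.6% of all genes, and 41 of 44 in the higher class with a median of 0.23, against 46.8%. The difference of the effect between classes was tested in 1 fit with edgeR, and 0 members passed in the i.p. ASC, i.v. ASC and CM comparisons, with 0% of all genes in each. Its smallest adjusted p among members was 0.273, 0.9999 and 0.958, and 18, 0 and 10 of 44 members had an unadjusted p under 0.05, all of them with the larger value in the lower class. Over all 12867 genes, 1308, 160 and 224 genes had an unadjusted p under 0.05 with the larger value in the lower class and 449, 110 and 165 with the larger value in the higher class. Without untreated rat 24, the lowest library of the lower class, the lower-class medians were 0.34, 0.12 and 0.25 for i.p. ASC, i.v. ASC and CM. The lower-class CM rats were rats 2 and 19 only, whose median log2 CPM over the members was 8.502 and 7.74, against 7.68 to 7.92 in the lower-class untreated rats. The lower-class i.p. ASC rats 5, 7 and 17 had medians of 8.42, 8.39 and 8.04. Their proximal tubule markers summed to 13019, 11323 and 6867 TPM, and those of the higher-class i.p. ASC rats 6, 15 and 16 to 3605, 4192 and 2028. With the class as a covariate in the fit of all rats, the medians were 0.19, 0.21 and 0.094. What separates the classes, and its share in these values, was not tested.

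**Figure D4:**
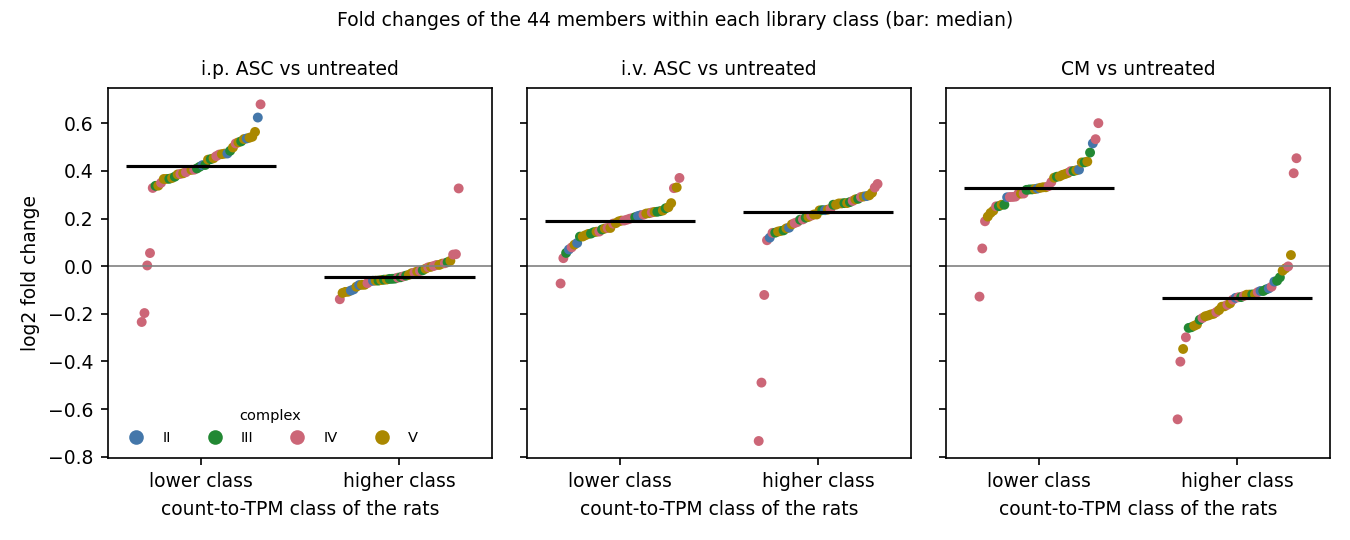
Log2 fold change against untreated rats (y axis) of the 44 members within the lower and the higher count-to-TPM class (x axis), coloured by complex, with the median as a bar. After i.p. ASC and CM the medians are 0.42 and 0.33 in the lower and -0.047 and -0.13 in the higher class, while after i.v. ASC they are 0.19 and 0.23. The lower-class CM values come from rats 2 and 19 only.

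In complex II, the flavoprotein subunit Sdha and the iron-sulfur subunit Sdhb carry the catalytic head, and Sdhc and Sdhd anchor it in the membrane. The lowest, median and highest CPM of Sdha were 444, 520.1 and 567 in untreated rats, 439.8, 552 and 730.5 in i.p. ASC rats and 457, 523 and 753 in i.v. ASC rats, while CM rats 2, 11, 19 and 21 had 714, 526, 460.0 and 477 CPM. All groups overlapped, and i.v. ASC rat 3 and CM rat 2 were the highest of their groups. The log2 fold change of Sdha was 0.19 ± 0.14 (SE) after i.p. ASC, 0.10 ± 0.14 after i.v. ASC and 0.092 ± 0.15 after CM, with adjusted p-values of 0.771, 0.764 and 0.948 in edgeR's quasi-likelihood test. That of Sdhb was 0.17 ± 0.12 (SE) after i.p. ASC, 0.14 ± 0.12 after i.v. ASC and 0.13 ± 0.13 after CM, with adjusted p-values of 0.771, 0.615 and 0.884. Sdhd had the smallest unadjusted p of the complex after i.p. ASC and after CM, and Sdhc after i.v. ASC. For Sdhd, untreated rats had 206, 251 and 297 CPM as lowest, median and highest value, i.p. ASC rats had 249, 276 and 391 and i.v. ASC rats had 231, 288 and 373. In CM rats 2, 11, 19 and 21, Sdhd was at 427, 285, 218 and 219.8 CPM. The lowest rats of all groups lay within the untreated range of Sdhd, and CM rat 2 was the highest of all 22 rats. The log2 fold change of Sdhd was 0.28 ± 0.16 (SE) after i.p. ASC, 0.26 ± 0.16 after i.v. ASC and 0.19 ± 0.18 after CM, and its 95% interval after i.p. ASC ran from -0.055 to 0.62. The log2 fold change of Sdhc was 0.22 ± 0.14 (SE) after i.p. ASC, 0.23 ± 0.14 after i.v. ASC and 0.15 ± 0.15 after CM. In each comparison 0 of the 4 members of complex II passed the threshold.

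In complex III, Uqcrc1 is a core protein, and Cyc1, cytochrome c1, and Uqcrfs1, the Rieske iron-sulfur protein, carry electrons. Uqcrc1 was measured at a lowest, median and highest level of 268, 328 and 346 CPM in untreated rats, of 311, 339 and 437 in i.p. ASC rats and of 286, 363 and 409 in i.v. ASC rats, and at 461, 345, 285 and 315 CPM in CM rats 2, 11, 19 and 21. The groups overlapped, with untreated rat 24 lowest and CM rat 2 highest. The log2 fold change of Uqcrc1 was 0.19 ± 0.12 (SE) after i.p. ASC, 0.17 ± 0.12 after i.v. ASC and 0.13 ± 0.13 after CM, with adjusted p-values of 0.771, 0.547 and 0.876 in edgeR's quasi-likelihood test, and it had the smallest unadjusted p of the complex after i.p. ASC and CM. For Uqcrfs1 it was 0.24 ± 0.15 (SE) after i.p. ASC, 0.21 ± 0.15 after i.v. ASC and 0.17 ± 0.17 after CM, with adjusted p-values of 0.771, 0.574 and 0.882. For Cyc1 it was 0.15 ± 0.10 (SE) after i.p. ASC, 0.15 ± 0.10 after i.v. ASC and 0.066 ± 0.11 after CM, with adjusted p-values of 0.771, 0.554 and 0.949. Uqcr11, with the smallest unadjusted p after i.v. ASC, had 0.22 ± 0.14 (SE) after i.p. ASC, 0.24 ± 0.14 after i.v. ASC and 0.14 ± 0.15 after CM, and its adjusted p-values were 0.771, 0.523 and 0.89. The remaining 5 members, Uqcr10, Uqcrb, Uqcrc2, Uqcrh and Uqcrq, had log2 fold changes of 0.14 to 0.20 after i.p. ASC, 0.11 to 0.26 after i.v. ASC and 0.028 to 0.17 after CM.

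In complex IV the nuclear subunits surround the mitochondrially encoded catalytic core. Cox4i1 is the largest of them and is involved in the regulation by ATP. The lowest, median and highest CPM of Cox8a were 463, 583 and 693 in untreated rats, 576, 664 and 938 in i.p. ASC rats and 527, 721 and 937 in i.v. ASC rats, while CM rats 2, 11, 19 and 21 had 1027, 698, 541 and 522 CPM. Of all members Cox8a had the highest fold change in both ASC comparisons, yet the lowest treated rats lay inside the untreated range. Its log2 fold change was 0.30 ± 0.17 (SE) after i.p. ASC, 0.31 ± 0.17 after i.v. ASC and 0.24 ± 0.19 after CM, with adjusted p-values of 0.771, 0.523 and 0.834 in edgeR's quasi-likelihood test, and the 95% interval after i.v. ASC ran from -0.041 to 0.66. Cox4i1 had 0.16 ± 0.12 (SE) after i.p. ASC, 0.18 ± 0.12 after i.v. ASC and 0.039 ± 0.13 after CM, Cox6a1 had 0.17 ± 0.11 (SE) after i.p. ASC, 0.18 ± 0.11 after i.v. ASC and 0.069 ± 0.13 after CM and Cox7a2 had 0.21 ± 0.14 (SE) after i.p. ASC, 0.25 ± 0.14 after i.v. ASC and 0.019 ± 0.15 after CM. Their adjusted p-values were between 0.523 and 0.997. Cox5a, which had the smallest unadjusted p of the complex after i.p. ASC, had 0.26 ± 0.14 (SE) after i.p. ASC, 0.28 ± 0.14 after i.v. ASC and 0.16 ± 0.15 after CM. Cox6c, which had it after i.v. ASC, had 0.20 ± 0.14 (SE) after i.p. ASC, 0.30 ± 0.14 after i.v. ASC and 0.039 ± 0.16 after CM.

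For Cox6c, untreated rats had 166, 218 and 266 CPM as lowest, median and highest value, i.p. ASC rats had 211, 258 and 292 and i.v. ASC rats had 210.3, 266 and 352. In CM rats 2, 11, 19 and 21, Cox6c was at 306, 234, 176 and 199 CPM. The i.v. ASC rats of Cox6c overlapped the untreated rats, although rat 9 had the highest value of all 22 rats. Both Cox5a and Cox6c had an adjusted p of 0.523 after i.v. ASC in edgeR's quasi-likelihood test. Cox5b, Cox6b1, Cox7b, Cox7c and Cox7a2l, of which the last is known for binding complexes III and IV into supercomplexes, had log2 fold changes of 0.049 to 0.19 after i.p. ASC, 0.13 to 0.21 after i.v. ASC and -0.059 to 0.10 after CM.

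The low isoforms of complex IV did not follow the rest. Cox4i2 was measured at a lowest, median and highest level of 2.09, 3.57 and 4.47 CPM in untreated rats, of 2.06, 3.44 and 5.38 in i.p. ASC rats and of 0.648, 2.98 and 4.39 in i.v. ASC rats, and at 3.58, 5.46, 5.96 and 4.90 CPM in CM rats 2, 11, 19 and 21. Rat 2, which had the highest levels of most other members among CM rats, had the lowest Cox4i2 of that group. The other CM rats lay above all untreated rats, as did i.p. ASC rats 16 and 17 with 4.98 and 5.38 CPM. The log2 fold change of Cox4i2 was 0.029 ± 0.33 (SE) after i.p. ASC, -0.32 ± 0.34 after i.v. ASC and 0.49 ± 0.36 after CM, with adjusted p-values of 0.986, 0.686 and 0.822 in edgeR's quasi-likelihood test, and it had the smallest unadjusted p of complex IV after CM. The lowest, median and highest CPM of Cox6a2 were 0.91, 2.11 and 4.44 in untreated rats, 1.51, 2.16 and 3.09 in i.p. ASC rats and 1.05, 2.29 and 3.56 in i.v. ASC rats, while CM rats 2, 11, 19 and 21 had 0.796, 1.44, 2.94 and 2.13 CPM. The groups overlapped, and the log2 fold change of Cox6a2 was -0.16 ± 0.35 (SE) after i.p. ASC, -0.053 ± 0.35 after i.v. ASC and -0.40 ± 0.40 after CM, with adjusted p-values of 0.914, 0.957 and 0.882. Cox6b2 had fitted values of 0.034, -0.089 and 0.28, with adjusted p-values of 0.977, 0.902 and 0.892. These genes had means of under 50 counts a rat, and their intervals were wide, and for Cox4i2 after CM the 95% interval ran from -0.27 to 1.25.

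Over the 22 rats, the low and the ubiquitous isoform were compared on the log2 CPM scale for 3 pairs, with 2-sided permutation tests. For Cox4i1 and Cox4i2, Pearson's r was -0.34 (permutation p = 0.115, adjusted 0.271) and Spearman's rho was -0.39 (permutation p = 0.0746, adjusted 0.224). Without the 2 rats farthest from the median of Cox4i1, r was -0.41, and it was -0.15 in the lower and -0.53 in the higher library class. For Cox6a1 and Cox6a2, r was -0.30 (permutation p = 0.181, adjusted 0.271) and rho was -0.20 (permutation p = 0.361, adjusted 0.486). It was -0.28 without the 2 farthest rats, -0.75 in the lower and 0.16 in the higher class. For Cox6b1 and Cox6b2, r was -0.24 (permutation p = 0.278, adjusted 0.278) and rho was -0.16 (permutation p = 0.486, adjusted 0.486). It was -0.25 without the 2 farthest rats, -0.32 in the lower and -0.12 in the higher class. None of the 3 relations passed the threshold.

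**Figure D5:**
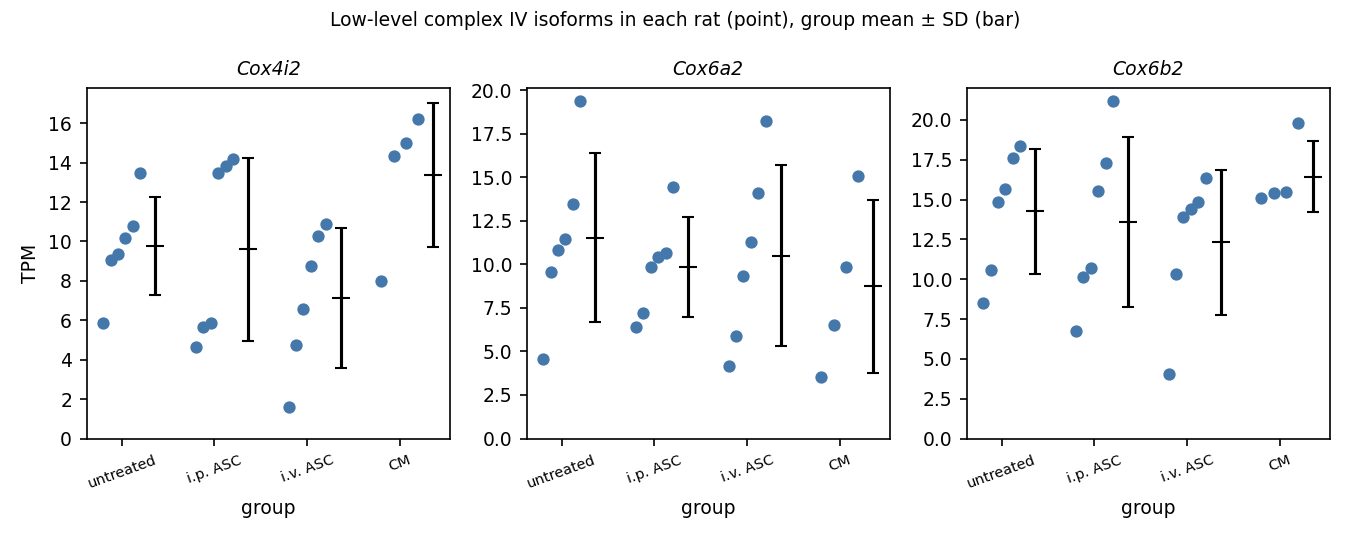
TPM of Cox4i2, Cox6a2 and Cox6b2 (y axes, starting at 0) in each rat by group, with group means ± SD as bars. The groups overlap for all 3 genes, and 3 of the 4 CM rats have more than 14 TPM of Cox4i2 against at most 13.5 TPM in untreated rats. The i.p. ASC rats 16 and 17 have 14.2 and 13.8 TPM of Cox4i2.

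In complex V, Atp5f1a and Atp5f1b form the catalytic head, the 3 Atp5mc genes the rotor ring, and Atp5if1 encodes the inhibitor that binds the head when the gradient collapses. For Atp5f1a, untreated rats had 1072, 1203 and 1329 CPM as lowest, median and highest value, i.p. ASC rats had 1047, 1292 and 1932 and i.v. ASC rats had 1128, 1286 and 1879. In CM rats 2, 11, 19 and 21, Atp5f1a was at 1886, 1327, 1080.4 and 1140.2 CPM. The ranges of all groups overlapped, and i.p. ASC rat 5, CM rat 2 and i.v. ASC rat 3 were the highest of their groups. The log2 fold change of Atp5f1a was 0.23 ± 0.16 (SE) after i.p. ASC, 0.16 ± 0.16 after i.v. ASC and 0.18 ± 0.18 after CM, with adjusted p-values of 0.771, 0.669 and 0.882 in edgeR's quasi-likelihood test. That of Atp5f1b was 0.20 ± 0.13 (SE) after i.p. ASC, 0.15 ± 0.13 after i.v. ASC and 0.10 ± 0.14 after CM, with adjusted p-values of 0.771, 0.613 and 0.93. That of Atp5if1 was 0.15 ± 0.10 (SE) after i.p. ASC, 0.17 ± 0.10 after i.v. ASC and 0.028 ± 0.11 after CM, with adjusted p-values of 0.771, 0.532 and 0.987.

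Atp5mc3 was measured at a lowest, median and highest level of 292, 368 and 445 CPM in untreated rats, of 380.1, 438 and 553 in i.p. ASC rats and of 344, 459 and 538 in i.v. ASC rats, and at 553, 381, 316 and 339.6 CPM in CM rats 2, 11, 19 and 21. Atp5mc3 had the smallest unadjusted p of all members after i.p. ASC, and its ranges still overlapped. Its log2 fold change was 0.28 ± 0.14 (SE) after i.p. ASC, 0.27 ± 0.14 after i.v. ASC and 0.084 ± 0.16 after CM, with adjusted p-values of 0.771, 0.523 and 0.954 in edgeR's quasi-likelihood test. The lowest, median and highest CPM of Atp5mc2 were 239, 282 and 325 in untreated rats, 269, 315 and 362 in i.p. ASC rats and 279, 335 and 355 in i.v. ASC rats, while CM rats 2, 11, 19 and 21 had 384, 355, 263 and 280.0 CPM. Atp5mc2 had the smallest unadjusted p of the complex after i.v. ASC and after CM, and the lowest i.v. ASC rat lay below the untreated median. Its log2 fold change was 0.14 ± 0.10 (SE) after i.p. ASC, 0.21 ± 0.10 after i.v. ASC and 0.17 ± 0.11 after CM, with adjusted p-values of 0.771, 0.523 and 0.77, and the 95% interval after i.v. ASC ran from 0.0010 to 0.41. Atp5mc1 had 0.19 ± 0.12 (SE) after i.p. ASC, 0.21 ± 0.12 after i.v. ASC and -0.014 ± 0.14 after CM, with adjusted p-values of 0.771, 0.53 and 0.998. The remaining 11 members of the complex had log2 fold changes of 0.14 to 0.25 after i.p. ASC, 0.17 to 0.30 after i.v. ASC and -0.024 to 0.18 after CM.

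Genes that act with the complexes were described from lists. Cycs, cytochrome c, which carries electrons from complex III to complex IV, had mean CPM ± SD of 504 ± 124, 912 ± 538, 854 ± 420.1, 898 ± 629 in untreated, i.p. ASC, i.v. ASC and CM rats. The lowest, median and highest values were 380, 467 and 729 CPM in untreated rats and 429, 677 and 1716 in i.p. ASC rats. They were 407, 731 and 1462 in i.v. ASC rats and 438, 682 and 1790 in CM rats. Every treated range overlapped the untreated range. The log2 fold change of Cycs was 0.86 ± 0.39 (SE) after i.p. ASC, 0.76 ± 0.39 after i.v. ASC and 0.83 ± 0.43 after CM, with adjusted p-values of 0.771, 0.523 and 0.711 in edgeR's quasi-likelihood test. The carriers Slc25a4 and Slc25a5, which exchange ADP and ATP across the inner membrane, had 0.11 ± 0.10 (SE) after i.p. ASC, 0.086 ± 0.10 after i.v. ASC and 0.018 ± 0.11 after CM, and 0.21 ± 0.13 (SE) after i.p. ASC, 0.15 ± 0.13 after i.v. ASC and 0.13 ± 0.14 after CM. Of the regulators, the coactivator gene Ppargc1a had -0.21 ± 0.21 (SE) after i.p. ASC, -0.49 ± 0.21 after i.v. ASC and -0.30 ± 0.24 after CM, with adjusted p-values of 0.817, 0.523 and 0.837, and the receptor gene Esrra had 0.10 ± 0.066 (SE) after i.p. ASC, 0.14 ± 0.066 after i.v. ASC and 0.10 ± 0.074 after CM, with adjusted p-values of 0.771, 0.523 and 0.83. Ppargc1a thus had fitted values below 0 in all 3 comparisons, while most members were above 0.

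By list, values are given in the order i.p. ASC, i.v. ASC and CM. Assembly factors of complex II were above 0 in 3, 3 and 3 of 3 genes, those of complex III in 7, 7 and 5 of 8, those of complex IV in 17, 17 and 12 of 17 and those of complex V in 6, 4 and 4 of 6. The regulators of respiratory chain genes were above 0 in 7, 5 and 8 of 14, with medians of -0.037, -0.041 and 0.023. The carriers of ADP, ATP and phosphate were above 0 in 3, 3 and 2 of 3. For comparison, the complex I subunits were above 0 in 37, 36 and 35 of 37 with medians of 0.20, 0.23 and 0.11, and the citrate cycle genes in 18, 15 and 15 of 18 with medians of 0.16, 0.10 and 0.089. In all these lists 0 genes passed the threshold in edgeR. These shares stand beside backgrounds of 46.2%, 47.5% and 49.1%.

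The tissue label was checked first, and the kidney genes Umod, Slc34a1 and Aqp2 were present in every rat, with lowest values of 847, 227 and 406 TPM. Markers of kidney cell types differed beside the members. The proximal tubule markers were above 0 in 12, 12 and 13 of 15 genes, with medians of 0.54, 0.48 and 0.69. Their summed TPM was 1760.4 to 5923 in untreated, 2028 to 13019 in i.p. ASC, 2742 to 14324 in i.v. ASC and 4978 to 13519.5 in CM rats. The podocyte markers were above 0 in 0, 0 and 0 of 5 genes, with medians of -0.36, -0.68 and -0.58, and summed to 160.1 to 359, 119.6 to 289, 59.1 to 291 and 54.7 to 299.7 TPM. The endothelial markers were above 0 in 0, 0 and 1 of 7 genes, with medians of -0.25, -0.31 and -0.23, and summed to 287 to 390.3, 178 to 392, 119.9 to 386 and 179 to 412 TPM. None of these markers was at 0 in all rats. Of the 5 urothelial markers tested, 5 were above 0 after i.v. ASC with a median of 5.14, while 2 and 0 were after i.p. ASC and CM. The thick ascending limb and distal tubule markers were above 0 in 3, 3 and 3 of 7 genes, with medians of -0.022, -0.033 and -0.17. The collecting duct markers were above 0 in 8, 9 and 2 of 11 genes, with medians of 0.020, 0.17 and -0.31, and summed to 1750.3 to 2668, 1343 to 2548, 1890.5 to 3371 and 1628 to 1928 TPM. The fibroblast markers were above 0 in 5, 6 and 6 of 6 genes, with medians of 0.068, 0.18 and 0.54, and summed to 318 to 476, 204 to 538, 192 to 642 and 288 to 723 TPM. Both lists had their largest median change after CM. In all marker lists 0 genes passed the threshold in edgeR. An unadjusted p under 0.05 was found after i.v. ASC for 5 of 5 urothelial and 3 of 11 collecting duct markers, which were higher, and for 2 of 5 podocyte, 2 of 15 proximal tubule and 1 of 7 thick ascending limb and distal tubule markers, which were lower. After CM it was found for 5 of 11 collecting duct and 3 of 7 thick ascending limb and distal tubule markers, which were lower. At the same level 2 of 6 fibroblast, 1 of 15 proximal tubule and 1 of 7 thick ascending limb and distal tubule markers were higher. Of the 3 adipocyte markers tested, 1 was higher at that level after i.p. ASC, 1 after i.v. ASC and 1 after CM. After i.p. ASC no marker of the other lists reached it.

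Over the 22 rats, the median log2 CPM of the members was set beside the mean log2 CPM of these markers, for 3 lists and as a description. With the proximal tubule markers it gave r = 0.58 and rho = 0.50, with the podocyte markers r = -0.69 and rho = -0.69 and with the endothelial markers r = -0.73 and rho = -0.65. Without the 2 rats farthest from the median of the marker mean, r was 0.54, -0.72 and -0.78. Within the lower library class r was 0.74, -0.77 and -0.87, and within the higher class 0.35, -0.67 and -0.65. Both measures come from the same libraries and size factors. With the proximal tubule mean as a covariate the median log2 fold changes of the members were 0.10, 0.14 and -0.038 for i.p. ASC, i.v. ASC and CM. How much of the members' values goes with the other marker lists was not tested.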

How the data were processed

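RNA was taken from snap-frozen left kidneys of 22 rats and sequenced on a BGISEQ-500. Per the submitters' processing notes the authors used Trim Galore 0.6.4, kallisto 0.4.6 and build rn6. The deposited estimated counts per gene came from the authors' kallisto run (14.1% were not whole) and were rounded before testing. The deposited TPM were scaled by the authors to transcript length and total, and summed to 959754 to 968550 per rat. Of the 17334 genes, 17179 had a symbol in the RefSeq table.

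Counts were tested with edgeR 4.0.16 (R 4.3.3), with TMM factors, the default expression filter and the quasi-likelihood test over all 4 groups, with Benjamini-Hochberg adjustment over 12867 genes at a threshold of 0.05. CPM were normalised with the same factors. Alternatives used DESeq2 1.42.0, limma 3.58.1 and sva 3.50.0. Tested on simulated counts for the 12867 genes, with 100 genes per fold, edgeR recovered 79%, 75% and 80% of genes changed by a factor of 2 and 48%, 58% and 48% of those changed by a factor of 1.5 in the i.p. ASC, i.v. ASC and CM comparisons. Smaller factors were not simulated, and each gene was drawn independently. These shares therefore do not cover changes as small as the members' medians. Replicates were separate rats. The lowest Spearman correlation between any pair of rats was 0.97, taken without regard to group, so that it does not describe the replicates of a group alone. Named genes were the catalytic and paired subunits of each complex, the gene with the smallest p in each complex and comparison, and Cycs, Ppargc1a, Esrra, Slc25a4 and Slc25a5. Fold changes of Cox6b2 were added after their values were seen. Other size factors, filters, scales, covariates and sets of rats were tried as alternatives. The members and gene lists were chosen with earlier results of these data known. Genes of the mitochondrial genome and further treatment groups were not analysed here.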

Additional observations from a re-analysis of the deposited data

Results flagged for a closer look

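Each of 27 results was examined in 4 groups, 108 groups in all, for a rat that stood apart, and chance marks about 1 in 20 groups of this kind. In the i.v. ASC group, rat 3 had a Sdha level of 753 CPM, where the other 5 rats had 457 to 548 CPM. The same rat had 1879 CPM of Atp5f1a, where the others had 1128 to 1310. Rat 3 is one of the 4 i.v. ASC rats with high urothelial markers, at 324 TPM. Rat 9 of that group had 545 TPM of these markers, with 548 CPM of Sdha and 1310 of Atp5f1a. The proximal tubule markers of rat 3 summed to 14324 TPM, the highest of the 22 rats. What goes with the high levels in rat 3 was not tested. Among untreated rats, rat 24 had a summed TPM of complex V of 15435, where the other 5 had 17235 to 18053.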

How the results depend on the processing

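Under every alternative run, planned or added, 0 of 44 members passed the threshold in each comparison. Over all genes, edgeR with all 4 groups called 0 genes in each comparison and DESeq2 called 0, 28 and 4 after i.p. ASC, i.v. ASC and CM. With only the groups compared in the fit, edgeR called 1 gene after CM. With 1 rat left out, edgeR called up to 14 genes in the i.v. ASC comparison, up to 13 between i.v. and i.p. ASC and 0 in the others. No paired analysis was possible because each animal number belongs to 1 rat and no number is shared between groups. Leaving out 1 rat at a time, the median log2 fold change of the members ran from 0.14 without untreated rat 24 to 0.25 without i.p. ASC rat 15 after i.p. ASC, from 0.15 without untreated rat 24 to 0.27 without i.v. ASC rat 14 after i.v. ASC, and from -0.081 without CM rat 2 to 0.18 without CM rat 19 after CM. In alternatives chosen after seeing the data, it was 0.42 in lower-class and -0.047 in higher-class rats after i.p. ASC, and 0.33 and -0.13 after CM. With 1 surrogate variable the medians were 0.050, 0.047 and -0.081, with the length trend removed 0.13, 0.12 and 0.073, and relative to the median of all genes on the log2(TPM + 1) scale 0.19, 0.20 and 0.071. A minimum of 50 counts kept 41 members, with medians of 0.19, 0.21 and 0.089.

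On the log2(TPM + 1) scale the sign turned for Cox4i2 after i.p. ASC (-0.12), for Sdha after i.v. ASC (-0.026) and, after CM, for Cyc1 (-0.014), Cox4i1 (-0.034), Cox6a1 (-0.016), Cox7a2 (-0.063) and Atp5if1 (-0.043). Atp5mc1 after CM turned to 0.0011 with DESeq2, 0.0011 with RLE size factors and 0.0035 with only the groups compared. Leaving out 1 rat at a time gave log2 fold changes after i.p. ASC of -0.12 to 0.15 for Cox4i2 and -0.33 to 0.10 for Cox6a2. Leaving out 1 rat at a time gave log2 fold changes after i.v. ASC of -0.013 to 0.15 for Sdha and -0.22 to 0.21 for Cox6a2. Leaving out 1 rat at a time gave log2 fold changes after CM of -0.073 to 0.16 for Sdha, -0.019 to 0.20 for Sdhb, -0.030 to 0.22 for Uqcrc1, -0.081 to 0.28 for Uqcrfs1 and -0.074 to 0.13 for Cyc1. Those after CM also ran from -0.11 to 0.12 for Cox4i1, -0.088 to 0.15 for Cox6a1, -0.15 to 0.088 for Cox7a2, -0.011 to 0.36 for Cox8a and -0.028 to 0.27 for Atp5f1a. Those after CM also ran from -0.079 to 0.19 for Atp5f1b, -0.19 to 0.068 for Atp5mc1, -0.12 to 0.18 for Atp5mc3, -0.074 to 0.078 for Atp5if1 and -0.070 to 0.30 for Sdhd. The cause of these turns was not tested. Cox4i2, Cox6a2 and Cox6b2 had under 50 counts on average, which limits what their values can show.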
